A study of Mus musculus with 9 samples.

Results

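The genes described here encode the enzymes and transporters that carry glucose to pyruvate and lactate, together with the enzymes of the pentose phosphate pathway, and were chosen by symbol from a list of 32 genes. All 32 had a row among the 36410 rows of the deposited count table. They held 1.22% ± 0.0604 (SD, n = 3) of all counts in the control line, 0.867% ± 0.0271 in the HD-het line and 1.04% ± 0.0325 in the HD-homo line, and the libraries of the 3 lines did not overlap in this share. Of the 32, 31 passed the filter on low counts, and Slc16a3 did not.

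The values are counts of ribosome-protected fragments (ribosome footprints) in immortalized mouse striatal cells of strain C57/BL6, with 3 libraries per line. The control line, STHdhQ7/Q7, has a wild-type exon 1 of Htt knocked in, with 7 repeats as the labels give it. The HD-het line, STHdhQ7/Q111, carries such an allele beside a mutant allele with 111 repeats, and the HD-homo line, STHdhQ111/Q111, is mutant at both alleles. All cells were treated with cycloheximide, which stops elongating ribosomes, for 10 min, and footprints of 26 to 32 nt were taken from the monosome fraction. Each genotype was a single line, so that genotype and line cannot be told apart. Nothing in the labels says that the 3 libraries of a line came from separate cultures, so that p-values measure the spread between libraries, which may be technical. A footprint count joins the amount of an mRNA with its ribosome occupancy, and a lower count in a bulk sample cannot separate fewer expressing cells from less RNA per cell.

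Library totals ran from 22504543 to 41888701 counts, and the correlation of log values between libraries of a line from 0.987 to 0.995. Htt fell from 28.7 ± 1.07 CPM (counts per 1000000 after trimmed-mean scaling, mean ± SD, n = 3) in control to 20.3 ± 0.819 in HD-het and 6.62 ± 0.971 in HD-homo. Of 21 striatal projection neuron markers, 7 reached 1 CPM in control cells, 6 in HD-het cells and 7 in HD-homo cells. Their summed level was 92.6 to 104 CPM in the control libraries, 98.5 to 119 in those of HD-het and 112 to 139.8 for HD-homo, led by Foxp1 in each line, while Drd1, Drd2 and Gsx2 were at 0 in every line. The lines also differed in markers of other cell types. The sum over 10 mesenchymal or smooth muscle markers was 6842 to 9762 CPM in control, 28700 to 30916 in HD-het cells and 5745 to 7366 in HD-homo, with Lum at 0 in control and Thy1 at 0 in HD-het. Nes, a marker of neural precursors, had 399.6 ± 82.7 CPM (SD, n = 3) in control, 1086 ± 77.8 for HD-het and 7.01 ± 0.611 for HD-homo. The mesenchymal sum was highest in HD-het and overlapped between control and HD-homo, whereas Nes was lowest in HD-homo. The general neuron sum was lower in both mutant lines than in control. The part of any of these markers in the results was not tested.

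Glycolysis splits glucose into pyruvate in a series of cytosolic steps that yield ATP and NADH, and lactate dehydrogenase returns the NADH to its oxidized form by turning pyruvate into lactate. The pentose phosphate pathway draws glucose phosphate away at the start of glycolysis, making NADPH in its oxidative branch and ribose phosphate in its non-oxidative branch. Phosphofructokinase is the main point of control, and pyruvate dehydrogenase kinases inhibit pyruvate dehydrogenase, which uses pyruvate inside mitochondria. Many of the genes are known targets of the hypoxia-inducible factors and of MYC. Neurons and their precursors depend on glucose, and lower striatal glucose use is a known feature of Huntington disease.

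Promoter sequence is shown for 5 genes of the isozyme and pyruvate results, as 120 bases that start 130 bases before the transcription start and end 11 bases before it, read on the strand of the gene from RefSeq (GRCm38.p6). Capitals mark the letters ACGTG or GCGTG, on either strand, which are the core letters of hypoxia response elements, CACGT and CACGC being the same letters on the other strand. Where ACGTG overlaps its own reverse complement the capitals read CACGTG, the E-box bound by MYC and MAX.
Pfkl, chr10:78009818-78009937, minus strand: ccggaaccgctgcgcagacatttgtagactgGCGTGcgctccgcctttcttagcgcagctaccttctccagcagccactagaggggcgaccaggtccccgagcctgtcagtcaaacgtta
Pfkp, chr13:6648782-6648901, minus strand: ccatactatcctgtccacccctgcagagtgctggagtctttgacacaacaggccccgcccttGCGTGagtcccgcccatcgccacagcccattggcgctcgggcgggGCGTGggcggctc
Ldha, chr7:46845674-46845793, plus strand: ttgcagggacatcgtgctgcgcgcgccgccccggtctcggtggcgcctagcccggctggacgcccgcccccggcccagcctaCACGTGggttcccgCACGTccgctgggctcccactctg
Ldhb, chr6:142507968-142508087, minus strand: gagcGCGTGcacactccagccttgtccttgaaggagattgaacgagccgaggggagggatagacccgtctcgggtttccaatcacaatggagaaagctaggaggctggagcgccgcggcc
Pdk1, chr2:71873094-71873213, plus strand: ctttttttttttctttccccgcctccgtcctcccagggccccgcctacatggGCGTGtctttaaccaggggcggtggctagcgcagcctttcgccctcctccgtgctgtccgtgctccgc
Over whole promoters of 300 bases, of which 31 of the genes had 45 entries, GCGTG was found on either strand in 62.2% of the entries against 32.4% of 32851 promoters of all genes, and ACGTG in 40.0% against 19.6%. CACGTG was in 8.89% against 7.15%, and TGACNNNGC, the core of the antioxidant response element, in 11.1% against 12.4%. All CACGTG matches hold ACGTG as well. Both ACGTG and GCGTG hold the letters CG, and the promoters of all genes were not matched for base content. A gene with several entries counts once for each of them. Ldha and Pdk1 each have a further promoter entry that is not printed, whose stretch of 120 bases holds 1 match to ACGTG or GCGTG for Ldha and 0 for Pdk1. Slc2a3 had no entry. Among the printed stretches, those of Pfkl, Pfkp, Ldhb and Pdk1 carry GCGTG, and that of Ldha carries ACGTG. In HD-het, footprints of Pfkp, Ldhb and Pdk1 were higher than in control and those of Pfkl and Ldha lower. The part of these letters in the footprints was not tested. A match is a string of letters and not a measured binding site. The annotation places other genes over parts of Slc2a1, Slc2a3, Hk1, Pfkm, Pfkp, Pfkfb3, Tpi1, Eno3, Pkm, Ldha, Slc16a3, Pdha1, G6pdx and Tkt, and the use of strand in counting is not given in the sources used here, so that fragments of such pairs could not be told apart.

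By their share of all counts the footprints of the pathway, taken as a sum, were lowest in HD-het. A few abundant genes weigh most in this sum. Pkm alone held 0.351% to 0.399% of all counts in the control libraries, 0.235% to 0.257% in HD-het and 0.270% to 0.309% in HD-homo. By edgeR's quasi-likelihood test, with p-values adjusted by the Benjamini-Hochberg method over 12678 genes, 27 of the 31 tested genes differed among the lines, where 78.4% of all tested genes did. Against control, 17 of the 31 were lower in HD-het and 5 were higher, while 29.1% of all genes were called lower and 31.0% higher. The median log2 fold change of the 31 was -0.32, beside 0.019 over all genes. HD-homo had 11 genes lower and 7 higher than control (22.3% and 23.3% of all genes), with a median of -0.0064 beside 0.017 over all genes. The count of 7 fell to 4 when HD-homo replicate 1, or either of control replicates 1 and 2, was left out. Between the mutant lines, 15 of the 31 were higher in HD-homo and 7 were lower, with 34.6% and 32.8% of all genes, and the median was 0.17 beside 0.017. HD-het libraries enter the first and the last of these comparisons, and control libraries the first and the second, so that the counts are not independent.

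Single libraries were also compared without a model. In 11 of the 31 genes all 3 HD-het libraries lay below the 6 others, which 24.8% of all tested genes did, and in 3 they lay above (24.2% of all genes). All control libraries were above the rest in 8 genes (11.1% of all genes) and below in 3 (12.4%). For HD-homo there were 6 genes below (17.4%) and 4 above (18.1%).

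**Figure D1:**
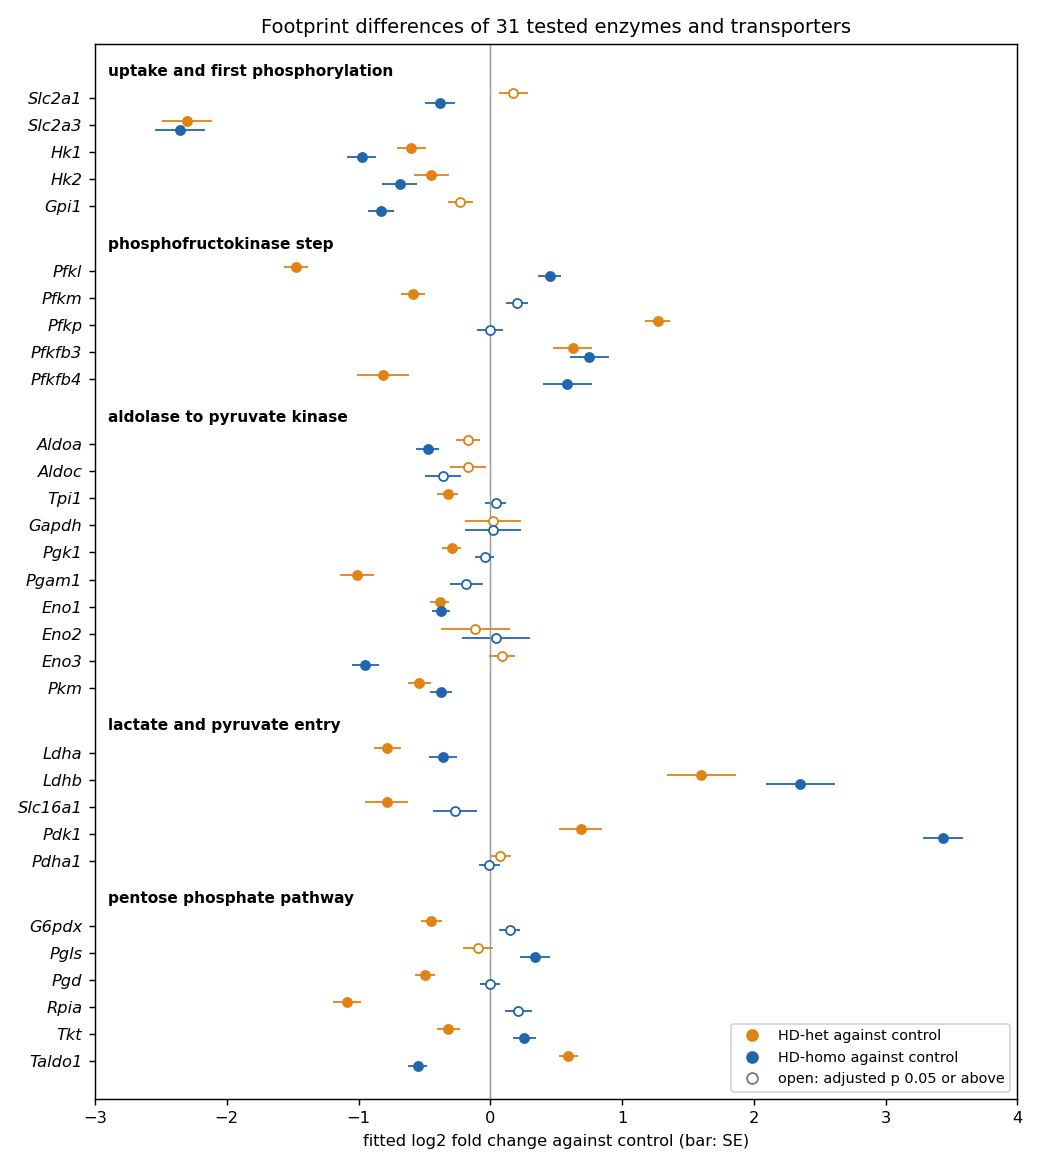
Fitted log2 fold change against control (x axis, bar = SE, n = 3 libraries per line) of the 31 tested genes, ordered by pathway step, for HD-het in orange and HD-homo in blue. Filled points passed an adjusted p of 0.05, and both mutant lines lie left of 0 for Hk1, Hk2, Eno1, Pkm and Ldha, while they lie on opposite sides for Pfkl, Pfkfb4, Tkt and Taldo1.

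Footprints of the genes of glucose uptake and the opening steps were lower in HD-homo, and in part in HD-het. All 5 genes of this stage were lower in HD-homo than in control, and 3 of them were lower in HD-het. Of all genes, 22.3% were called lower in HD-homo and 29.1% in HD-het. Slc2a3 encodes GLUT3, the high-affinity neuronal glucose transporter, and had 12.1, 13.3 and 12.8 CPM in the control libraries, 2.54, 3.14 and 1.94 in HD-het cells and 2.31, 2.03 and 3.24 in HD-homo. The mutant libraries all lay far below the control libraries, 4.94-fold in HD-het (log2 fold change -2.30 ± 0.19 (SE), adjusted p = 2.49e-06) and 5.11-fold in HD-homo (-2.35 ± 0.19 (SE), adjusted p = 1.84e-06), and overlapped with each other. Slc2a1 encodes GLUT1, the widely expressed basal transporter, and stood at 105, 102 and 104 CPM in the control libraries, 111, 120.3 and 121 in HD-het cells and 89.2, 64.4 and 86 in HD-homo. It was the more abundant of both transporters per coding length, and it was lower in HD-homo than in control (-0.38 ± 0.11 (SE), adjusted p = 0.0164) and than in HD-het (-0.55 ± 0.11 (SE), adjusted p = 0.000998), while HD-het, whose libraries all lay above control, missed the threshold (0.17 ± 0.11 (SE), adjusted p = 0.194). The share of Slc2a3 in the summed density of both, counts per coding length, was 10.9% ± 0.604 (SD, n = 3) in control, 2.12% ± 0.492 in HD-het cells and 3.06% ± 0.55 in HD-homo.

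Hexokinases trap glucose in the cell by phosphorylating it. Hk1, the constitutive isozyme of brain, had 198, 209 and 229.7 CPM in the control libraries, 142, 135 and 144 in HD-het cells and 100.4, 128 and 95.7 in HD-homo. The 3 lines did not overlap, and the fitted change from control was -0.60 ± 0.11 (SE), adjusted p = 0.000679 in HD-het and -0.97 ± 0.11 (SE), adjusted p = 2.85e-05 in HD-homo. Hk2, the inducible isozyme, had 108, 109 and 122 CPM in the control libraries, 80.8, 76.5 and 90.8 in HD-het cells and 68.8, 56.5 and 84.9 in HD-homo. Its control libraries were above all mutant libraries (HD-het -0.45 ± 0.13 (SE), adjusted p = 0.0122; HD-homo -0.69 ± 0.13 (SE), adjusted p = 0.00141), and the mutant lines overlapped. Hk1 made up 64.6% ± 0.544 of the density of the pair in control, 62.2% ± 1.43 in HD-het cells and 59.9% ± 8.31 in HD-homo, so that the share in HD-homo spread over the range of the other lines. Gpi1, which turns glucose phosphate into fructose phosphate, had 368, 389.8 and 387 CPM in the control libraries, 333, 324 and 321 in HD-het cells and 248, 192 and 204 in HD-homo. It was 1.78-fold lower in HD-homo than in control (-0.83 ± 0.096 (SE), adjusted p = 3.29e-05) and 1.52-fold lower than in HD-het (-0.60 ± 0.096 (SE), adjusted p = 0.000182), and the HD-het difference from control did not pass the test (adjusted p = 0.0584).

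At the phosphofructokinase step the isozymes moved apart in HD-het, with Pfkl and Pfkm lower and Pfkp higher than in control. The enzyme is a tetramer of liver-type (Pfkl), muscle-type (Pfkm) and platelet-type (Pfkp) subunits, which differ in how strongly ATP, citrate and other effectors act on them. Pfkl had 55.9, 59.5 and 58.3 CPM in the control libraries, 21.1, 22.5 and 18.8 in HD-het cells and 84.4, 75.2 and 78 in HD-homo. The HD-het libraries were the lowest and the HD-homo libraries the highest, with no overlap between any of the lines. Pfkl was 2.78-fold lower in HD-het than in control (-1.47 ± 0.091 (SE), adjusted p = 3.15e-07) and 1.37-fold higher in HD-homo (0.45 ± 0.087 (SE), adjusted p = 0.00138). The mutant lines differed by 1.93 ± 0.091 (SE), adjusted p = 1.7e-08. Pfkm had 69.8, 70.5 and 71.9 CPM in the control libraries, 46.9, 49.5 and 44.8 in HD-het cells and 84.8, 87.3 and 72.2 in HD-homo. It was lower in HD-het (-0.59 ± 0.088 (SE), adjusted p = 0.000168), while the HD-homo libraries, though all above control, did not pass the test (0.20 ± 0.087 (SE), adjusted p = 0.0781). Pfkp went the other way, with 59.2, 58.3 and 60.7 CPM in the control libraries, 148, 158 and 124 in HD-het cells and 59.6, 63 and 55.3 in HD-homo. All HD-het libraries were above the 6 others, 2.41-fold over control (1.27 ± 0.098 (SE), adjusted p = 1.56e-06), and HD-homo overlapped with control (-0.0024 ± 0.098, adjusted p = 0.987).

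Per coding length, the 3 subunits were near equal in control, where Pfkl held 30.8% ± 0.726 (SD, n = 3), Pfkm 37.7% ± 0.158 and Pfkp 31.5% ± 0.568 of the summed density. In HD-het, Pfkp held 67.6% ± 1.49, Pfkm 22.5% ± 1.33 and Pfkl 9.9% ± 0.16. In HD-homo the order was Pfkm with 37% ± 1.79, Pfkl with 36.1% ± 2.41 and Pfkp with 26.9% ± 0.933. The sum over the 3 subunits was 78.9, 80.3 and 81.4 CPM per coding kilobase in the control libraries, 91.9, 98.0 and 79.8 in HD-het and 97.6, 96.2 and 87.7 in HD-homo. The sum thus overlapped between control and HD-het, while the share of each subunit did not. The shares and sums are descriptions and were not tested.

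**Figure D2:**
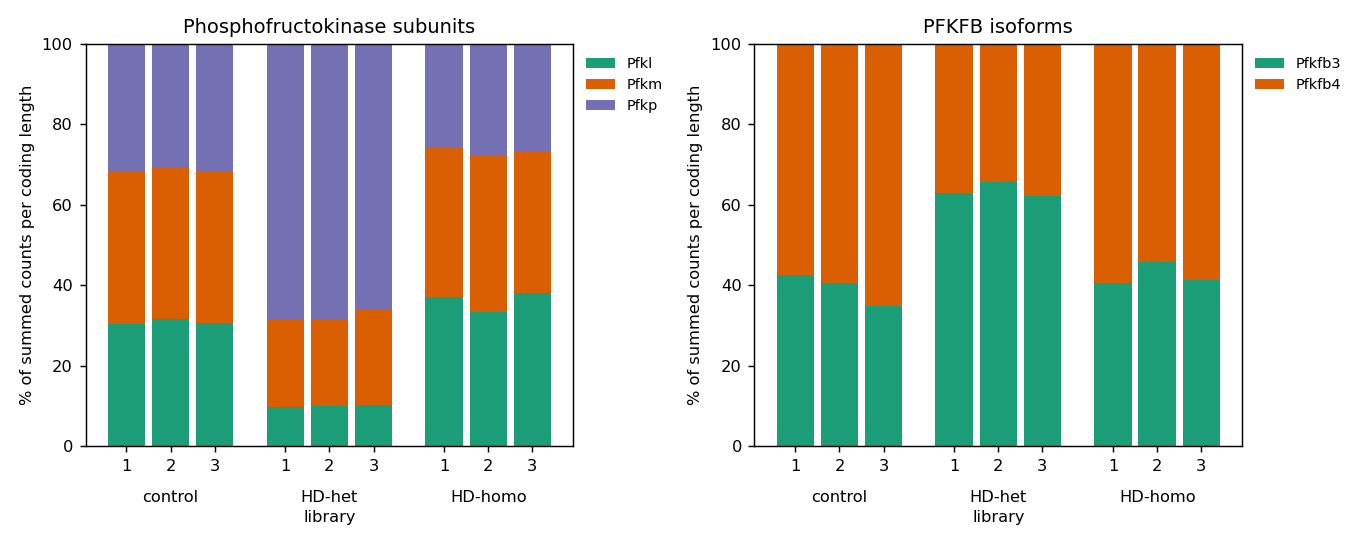
Share of each isozyme (y axis, % of the summed counts per coding length) in the 3 libraries of each line (x axis), for the phosphofructokinase subunits on the left and the PFKFB isoforms on the right. Pfkp fills 67.6% of the HD-het bars on average against 31.5% in control, and Pfkfb3 63.6% against 39.3%.

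The PFKFB enzymes make and break the fructose bisphosphate that activates phosphofructokinase. Pfkfb3, the isoform with the highest kinase activity relative to phosphatase activity, had 8.67, 8.35 and 7.41 CPM in the control libraries, 13.2, 12.8 and 11.6 in HD-het cells and 14.2, 10.7 and 16.2 in HD-homo. All mutant libraries lay above control (HD-het 0.62 ± 0.15 (SE), adjusted p = 0.00354; HD-homo 0.75 ± 0.15 (SE), adjusted p = 0.00159). Pfkfb4 had 10.6, 11 and 12.6 CPM in the control libraries, 6.98, 6.05 and 6.38 in HD-het cells and 18.9, 11.5 and 20.8 in HD-homo. It was lower in HD-het (-0.82 ± 0.20 (SE), adjusted p = 0.00385) and higher in HD-homo (0.59 ± 0.19 (SE), adjusted p = 0.0241), although HD-homo replicate 2 fell within the control range. The HD-homo call on Pfkfb4 was lost when any of control replicates 1 and 2 or HD-homo replicates 1 and 3 was left out, the adjusted p then being 0.0726 to 0.0983. Pfkfb3 held 39.3% ± 4.05 of the density of both isoforms in control, 63.6% ± 1.8 in HD-het cells and 42.5% ± 2.84 in HD-homo.

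From aldolase to pyruvate kinase, 5 of 10 genes were lower in HD-het than in control and none was higher, and 4 of 10 were lower in HD-homo and none higher. Of all genes, 29.1% were lower and 31.0% higher in HD-het, and 22.3% and 23.3% in HD-homo. No gene of this stage was higher at an unadjusted p under 0.05 or by DESeq2 either. Many genes here have processed pseudogenes, and the share of the 26-nt windows of a coding sequence that also occur in transcripts of other annotated genes was 58.1% for Aldoa and 40.8% for Tpi1, and elsewhere 55.7% for Gpi1, 60.5% for Ldhb and 36.5% for Taldo1. The intronless copies Aldoart1 and Aldoart2 had 54.9% to 59.6% and 31.9% to 36.4% of the Aldoa count in each library. Aldoa, the main aldolase of muscle and dividing cells, had 362, 385 and 390.3 CPM in the control libraries, 337, 337 and 339 in HD-het cells and 304, 242 and 272 in HD-homo. It was lower in HD-homo than in control (-0.48 ± 0.089 (SE), adjusted p = 0.00117) and than in HD-het (-0.31 ± 0.089 (SE), adjusted p = 0.00952), and HD-het against control missed the threshold (adjusted p = 0.122). Aldoc, the brain aldolase, ran from 5.26 to 7.86 CPM over all libraries and passed in no comparison.

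Tpi1 interconverts the triose phosphates that aldolase makes, and had 628, 605 and 649 CPM in the control libraries, 498, 487 and 520.0 in HD-het cells and 687, 656 and 595 in HD-homo. HD-het lay below both other lines (control -0.32 ± 0.078 (SE), adjusted p = 0.00407; HD-homo over HD-het 0.36 ± 0.078 (SE), adjusted p = 0.00155), which overlapped. The latter call was lost with offsets for GC content and coding length (adjusted p = 0.0544). Pgk1, which makes ATP from the product of Gapdh, had 1360.2, 1351 and 1289 CPM in the control libraries, 1065, 1148 and 1051 in HD-het cells and 1285, 1272 and 1329.7 in HD-homo. As with Tpi1, HD-het was the lowest line, 1.22-fold below control (-0.29 ± 0.072 (SE), adjusted p = 0.00442) and HD-homo overlapped with control (adjusted p = 0.672). Pgam1 moves the phosphate of phosphoglycerate and had 998, 1113 and 1079 CPM in the control libraries, 537, 489 and 556 in HD-het cells and 1156, 827 and 830.0 in HD-homo. The HD-het libraries were 2.02-fold below control (-1.01 ± 0.13 (SE), adjusted p = 4.45e-05), the largest fall of this stage in HD-het. HD-homo replicate 1 stood above control and the other HD-homo libraries below it, and the comparison with control did not pass (-0.18 ± 0.12 (SE), adjusted p = 0.261); without HD-homo replicate 1 the fitted change was -0.36 with adjusted p = 0.00795.

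Gapdh, often taken as a reference gene, had 38.3, 42.8 and 33.9 CPM in the control libraries, 39.7, 42.1 and 34.9 in HD-het cells and 55.8, 28.5 and 31.9 in HD-homo. It passed in no comparison (adjusted p of 0.937 or above), and the HD-homo libraries spread over the range of the other lines. Without HD-homo replicate 1 its change against control turned from 0.02 to -0.35 (adjusted p = 0.0453). Its density of 38.4 CPM per coding kilobase in control was below that of its neighbours Tpi1 (699) and Pgk1 (1066). All 26-nt windows of the coding sequences of both Gapdh and Pgk1 also occur in transcripts of other annotated genes. Among genes with a row in the deposited counts, the share was 100% for Gapdh and 0% for Tpi1 and Pgk1. How fragments with several matches were counted is not given in the sources used here, and the part of this in the level of Gapdh was not tested.

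Enolase makes phosphoenolpyruvate. Eno1, the ubiquitous isozyme, had 1657, 1662 and 1723 CPM in the control libraries, 1265, 1305 and 1292 in HD-het cells and 1345, 1241 and 1308 in HD-homo. All control libraries lay above all mutant libraries, with fitted changes in HD-het (-0.38 ± 0.07 (SE), adjusted p = 0.000623) and HD-homo (-0.37 ± 0.07 (SE), adjusted p = 0.00116). The row Eno1b, an intronless copy that holds 88.6% of the 26-nt windows of Eno1, had 99.6% to 101% of the Eno1 count in each library, so that these rows could not be told apart. Eno2, the neuronal isozyme, ran from 13.0 to 28.1 CPM and passed in no comparison, its highest value being that of control replicate 3. Without this library HD-homo was higher than control (0.49, adjusted p = 0.0255). Eno3, the muscle isozyme, had 71.6, 64.6 and 80.5 CPM in the control libraries, 78.2, 77 and 75.1 in HD-het cells and 36.2, 34.5 and 41.8 in HD-homo. It was 1.93-fold lower in HD-homo than in control (-0.95 ± 0.10 (SE), adjusted p = 1.82e-05) and overlapped between control and HD-het (adjusted p = 0.464). The sum over 8 skeletal muscle markers was also lower in HD-homo, with 219 to 255 CPM against 509 to 554 in control and 656 to 804 in HD-het, while the defining marker Myog was at 0 in every line; its part in the Eno3 result was not tested.

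Pkm, which yields the final ATP and pyruvate, had the most counts of all the genes, with 3551, 3532 and 3894 CPM in the control libraries, 2436, 2577 and 2537 in HD-het cells and 2825, 2562 and 3086 in HD-homo. Control lay above both mutant lines (HD-het -0.54 ± 0.086 (SE), adjusted p = 0.000267; HD-homo -0.37 ± 0.086 (SE), adjusted p = 0.00444), and the difference between the mutant lines missed the threshold (adjusted p = 0.107). The table gives Pkm a single row, so that its M1 and M2 forms could not be told apart. Its density in control was 2297 CPM per coding kilobase, followed by Pgam1 with 1396, Eno1 with 1291, Pgk1 with 1066 and Ldha with 1056. In HD-het these were 1579.8, 692, 989, 870.0 and 614, so that Pgam1 dropped behind Eno1 and Pgk1. In HD-homo they were 1773, 1230.3, 997, 1035 and 823. The share of 26-nt coding windows in other genes was 100% for Pgam1 and Pgk1, 91.2% for Eno1, 85.9% for Pkm and 70.4% for Ldha. Among genes with a deposited row, it was 88.6% for Eno1, 17.2% for Ldha and at most 0.64% for Pgam1, Pgk1 and Pkm. Such sharing bears on any order of levels.

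**Figure D3:**
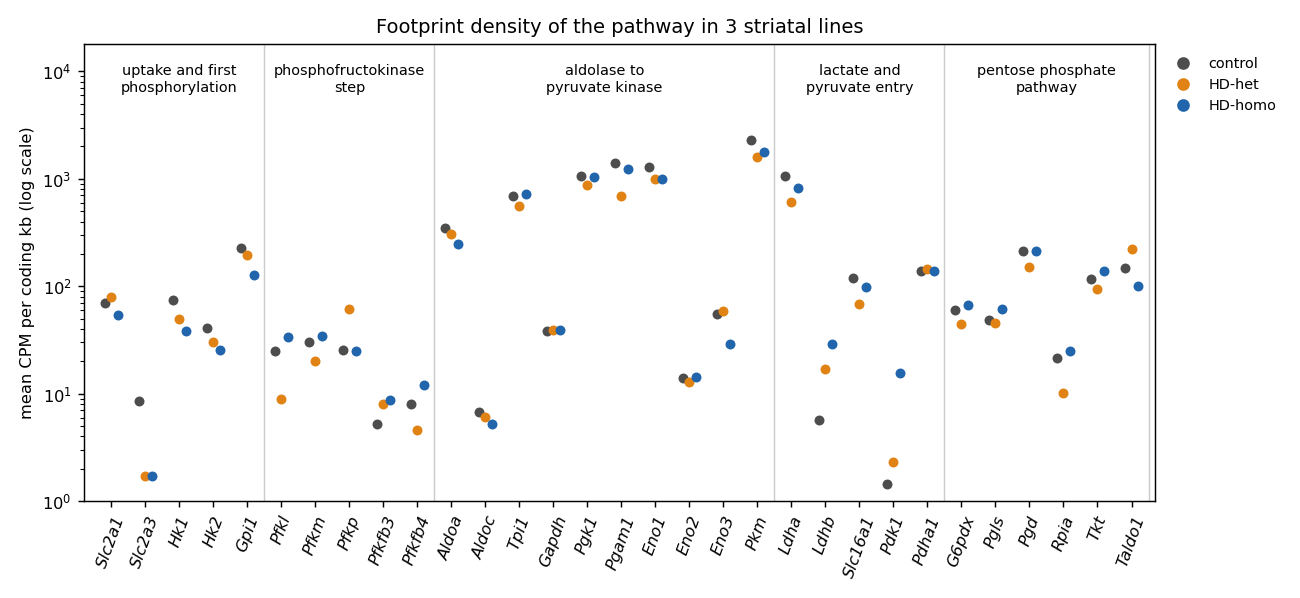
Mean CPM per coding kilobase (y axis, log scale, n = 3 libraries per line) of the 31 tested genes in pathway order (x axis) for control in grey, HD-het in orange and HD-homo in blue. The densities span from 1.43 for Pdk1 to 2297 for Pkm in control, and Pkm, Pgam1, Eno1, Pgk1, Ldha and Tpi1 stand above all the other genes in each line.

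Where pyruvate is made into lactate or used by pyruvate dehydrogenase, Ldha was lower, and Ldhb and Pdk1 were higher, than control in both mutant lines. Ldha encodes the subunit that favours lactate production and had 1028, 983 and 1144 CPM in the control libraries, 597, 558 and 681 in HD-het cells and 753, 793 and 913 in HD-homo. HD-het was 1.72-fold below control (-0.78 ± 0.10 (SE), adjusted p = 7.55e-05) and HD-homo lay between control and HD-het (-0.36 ± 0.10 (SE), adjusted p = 0.0155). The latter call was lost without control replicate 3 (adjusted p = 0.0612) or HD-homo replicate 1 (0.0522). Ldhb encodes the subunit that favours the use of lactate and had 5.19, 4.71 and 7.07 CPM in the control libraries, 18.3, 18.5 and 14.3 in HD-het cells and 17.2, 34.2 and 35.2 in HD-homo. All mutant libraries lay above control, 3.03-fold in HD-het (1.60 ± 0.26 (SE), adjusted p = 0.000317) and 5.11-fold in HD-homo (2.35 ± 0.26 (SE), adjusted p = 2.52e-05), while HD-homo replicate 1 fell among the HD-het libraries. The call of HD-homo over HD-het (0.75 ± 0.24 (SE), adjusted p = 0.0173) was lost without HD-het replicate 3 or without HD-homo replicate 2 or 3, and with offsets for GC content and coding length (adjusted p of 0.0520 to 0.0717). Ldhb stayed the minor form, with 0.528% ± 0.0726 of the density of both subunits in control, 2.73% ± 0.603 in HD-het cells and 3.34% ± 0.993 in HD-homo.

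Slc16a1 encodes MCT1, which carries lactate and pyruvate across the membrane, and had 168, 185 and 174 CPM in the control libraries, 83.1, 96 and 126 in HD-het cells and 174, 114 and 149 in HD-homo. HD-het lay below control (-0.79 ± 0.17 (SE), adjusted p = 0.00177), HD-homo overlapped with both lines, and HD-homo against control did not pass (adjusted p = 0.212). The call of HD-homo over HD-het (0.52 ± 0.17 (SE), adjusted p = 0.0162) was lost without HD-het replicate 1, HD-het replicate 2 or HD-homo replicate 1. Slc16a3, the lactate exporter MCT4 of strongly glycolytic cells, was nearly absent, with counts of 0, 1 and 0 in control, 4, 9 and 4 in HD-het cells and 0, 0 and 0 in HD-homo. Its mean of 0.196 CPM in HD-het was at least 1.74-fold higher than the mean floor of 3 counts per library in HD-homo.

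Pdk1 phosphorylates and inhibits pyruvate dehydrogenase, and showed the largest change of all 31 genes. It had 1.6, 1.76 and 2.22 CPM in the control libraries, 2.58, 2.97 and 3.45 in HD-het cells and 21, 20.7 and 18.7 in HD-homo. The 3 lines were separate from each other, and HD-homo was 10.8-fold above control (3.44 ± 0.15 (SE), adjusted p = 1.35e-08) and 6.74-fold above HD-het (2.75 ± 0.15 (SE), adjusted p = 4.04e-08). HD-het was 1.61-fold above control (0.69 ± 0.16 (SE), adjusted p = 0.00377). The other kinases are named after their values were seen. Pdk3 was denser than Pdk1 in HD-homo, with 46.6 against 15.5 CPM per coding kilobase. It was 1.40-fold above control there (0.49 ± 0.098 (SE), adjusted p = 0.00188). Pdk4 was lower in HD-homo than in control (-1.08 ± 0.25 (SE), adjusted p = 0.00419) and Pdk2 did not pass (adjusted p = 0.808). In HD-het, Pdk2 and Pdk3 were higher than control (adjusted p = 0.00384 and 0.0212). Pdha1, the catalytic subunit that these kinases act on, ran from 144.8 to 172 CPM and passed in no comparison (adjusted p of 0.387 or above).

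**Figure D4:**
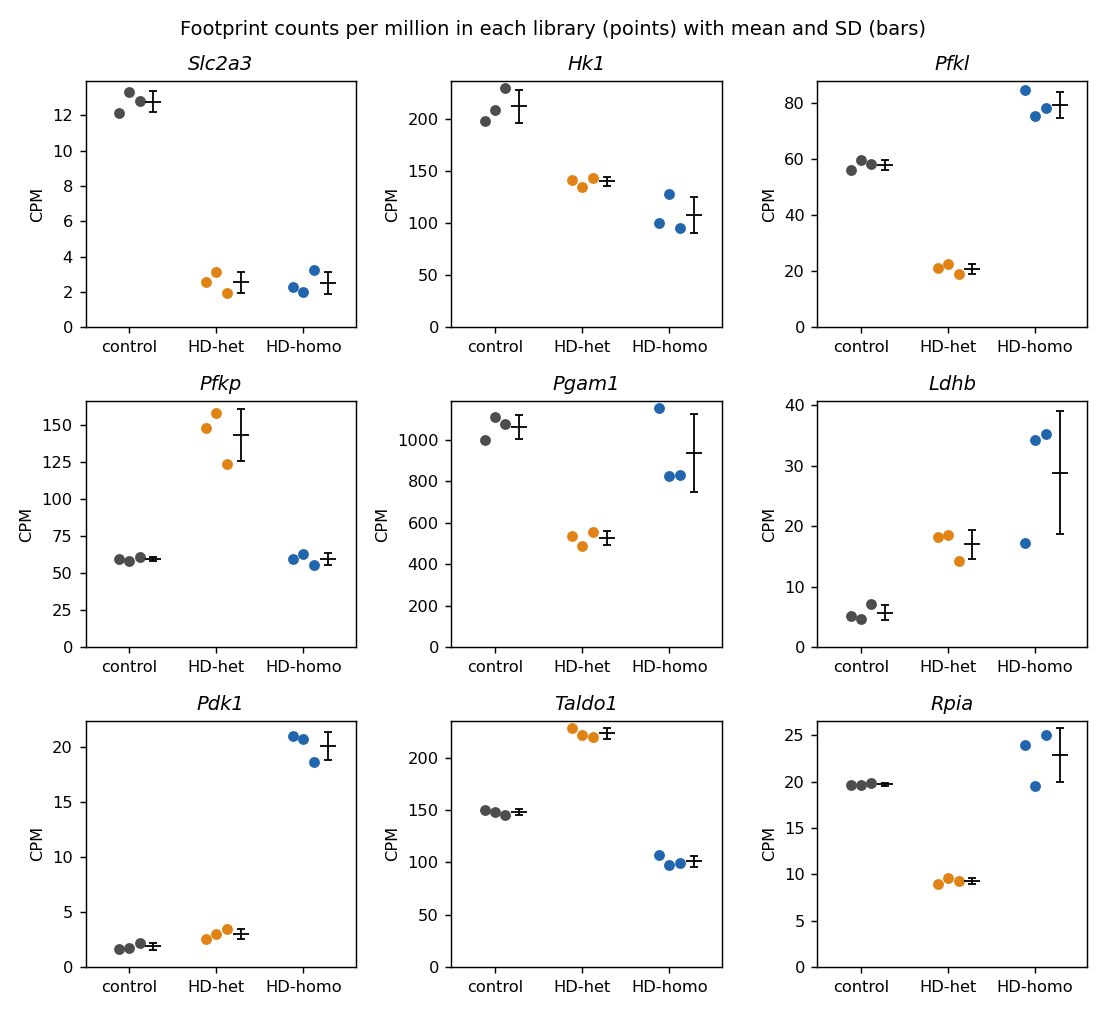
CPM in each library (y axis from 0, points) with the mean and SD (n = 3, black) for 9 of the genes in control, HD-het and HD-homo (x axis). Pfkl and Rpia are lowest and Pfkp and Taldo1 highest in the HD-het libraries, Slc2a3 is low in both mutant lines, and Pdk1 is high in HD-homo, with 18.7 to 21.0 CPM there and at most 3.45 elsewhere.

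In the pentose phosphate pathway the HD-het line had 4 of 6 genes lower than control and 1 higher, and HD-homo had 5 of 6 higher than HD-het and 1 lower. Of all genes, 29.1% were lower and 31.0% higher in the former comparison, and 34.6% were higher and 32.8% lower in the latter. The oxidative branch starts with G6pdx, the NADPH-producing glucose phosphate dehydrogenase, which had 92, 89.7 and 97.3 CPM in the control libraries, 69.1, 68.8 and 66.6 in HD-het cells and 107, 108 and 93.7 in HD-homo. HD-het lay below the other lines (-0.45 ± 0.08 (SE), adjusted p = 0.000567) and HD-homo did not pass against control (adjusted p = 0.151). The intronless copy G6pd2, with 24.0% of the windows in common, had 70.0% to 74.4% of the G6pdx count in each library. Pgls opens the lactone that G6pdx makes and had 36.4, 34.6 and 40.9 CPM in the control libraries, 36.3, 31.6 and 37.4 in HD-het cells and 51.9, 40.7 and 49 in HD-homo. It did not pass in HD-het (adjusted p = 0.51) and was higher in HD-homo (0.34 ± 0.11 (SE), adjusted p = 0.0285), with overlap between HD-homo and control. That call was lost when any of control replicates 1 and 2 or HD-homo replicates 1 and 3 was left out (adjusted p of 0.0777 to 0.112). Pgd, the NADPH-producing phosphogluconate dehydrogenase, had 319, 294 and 319 CPM in the control libraries, 233, 218 and 211 in HD-het cells and 302, 321 and 307 in HD-homo. HD-het was 1.41-fold below control (-0.49 ± 0.075 (SE), adjusted p = 0.000189), and HD-homo overlapped with control.

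In the non-oxidative branch, Rpia makes ribose phosphate for nucleotide synthesis and had 19.6, 19.6 and 19.9 CPM in the control libraries, 8.92, 9.6 and 9.27 in HD-het cells and 24, 19.6 and 25 in HD-homo. HD-het was 2.13-fold below control (-1.09 ± 0.11 (SE), adjusted p = 8.75e-06) and HD-homo was not called against control (adjusted p = 0.113). Transketolase and transaldolase link ribose phosphate back to glycolysis, and here they went in opposite directions. Tkt had 216, 219 and 221 CPM in the control libraries, 167, 169 and 191 in HD-het cells and 270.0, 281 and 234 in HD-homo. It was lower in HD-het (-0.32 ± 0.089 (SE), adjusted p = 0.00909) and higher in HD-homo (0.26 ± 0.089 (SE), adjusted p = 0.0332), a call that was lost when any library other than HD-homo replicate 3 or HD-het replicate 3 was left out (adjusted p of 0.0540 to 0.1200). Taldo1 had 151, 149 and 145 CPM in the control libraries, 229, 222 and 219.7 in HD-het cells and 107, 97.2 and 99 in HD-homo. It was 1.51-fold higher in HD-het (0.59 ± 0.071 (SE), adjusted p = 3.26e-05) and 1.47-fold lower in HD-homo (-0.55 ± 0.071 (SE), adjusted p = 7.35e-05), without overlap between any of the lines.

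Of 15 tested genes of the pyruvate dehydrogenase complex and pyruvate entry, 5 were higher and 3 lower in HD-het than in control, and 2 were higher and 5 lower in HD-homo. The shares over all genes were 31.0% higher and 29.1% lower in HD-het, and 23.3% and 22.3% in HD-homo. Pdhb, the partner subunit of Pdha1, had 82.2, 89.3 and 90.3 CPM in the control libraries, 58.4, 68.3 and 63.2 in HD-het cells and 68.8, 82.1 and 61.7 in HD-homo. It was lower than control in HD-het (-0.46 ± 0.11 (SE), adjusted p = 0.00326) and in HD-homo (-0.30 ± 0.11 (SE), adjusted p = 0.0406). Mpc1, a subunit of the mitochondrial pyruvate carrier, had 67, 61.1 and 65.6 CPM in the control libraries, 59.4, 55.9 and 53.4 in HD-het cells and 44.1, 44 and 42 in HD-homo, with HD-homo below all other libraries (-0.57 ± 0.079 (SE), adjusted p = 0.000119). HD-het was also lower than control (-0.20 ± 0.078 (SE), adjusted p = 0.0462). Pcx, which carboxylates pyruvate, had 3.74, 4.71 and 4.03 CPM in the control libraries, 5.92, 4.79 and 5.96 in HD-het cells and 10, 10.9 and 9.4 in HD-homo, and HD-homo lay above the other lines (over control 1.27 ± 0.14 (SE), adjusted p = 2.02e-05). HD-het was also higher than control (0.40 ± 0.14 (SE), adjusted p = 0.0295). Pck2, mitochondrial phosphoenolpyruvate carboxykinase, had 27.5, 28.2 and 22.1 CPM in the control libraries, 54.5, 53.4 and 46.2 in HD-het cells and 29.9, 25.8 and 19.9 in HD-homo, and was higher in HD-het (0.99 ± 0.15 (SE), adjusted p = 0.000162).

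Further isozymes and side enzymes of glycolysis numbered 22 tested genes, of which 4 were higher and 7 lower in HD-het, and 4 higher and 4 lower in HD-homo, beside 31.0% higher and 29.1% lower of all genes for HD-het and 23.3% and 22.3% for HD-homo. Bpgm, which diverts a glycolytic intermediate to bisphosphoglycerate, had 43.1, 43.3 and 39.9 CPM in the control libraries, 49.2, 51.1 and 47 in HD-het cells and 7.87, 10.7 and 9.23 in HD-homo. It was 4.56-fold lower in HD-homo than in control (-2.19 ± 0.11 (SE), adjusted p = 4.63e-08). H6pd, which makes NADPH in the endoplasmic reticulum, had 10.2, 9.11 and 8.54 CPM in the control libraries, 17.2, 13.8 and 23.2 in HD-het cells and 19.1, 17.5 and 18 in HD-homo, and was higher in both mutant lines (HD-het 0.95 ± 0.17 (SE), adjusted p = 0.00049; HD-homo 0.97 ± 0.17 (SE), adjusted p = 0.000618). Prps1, which uses the ribose phosphate that Rpia makes, had 75.3, 76.2 and 75.1 CPM in the control libraries, 48.5, 47.4 and 50.6 in HD-het cells and 79.7, 71.7 and 72.7 in HD-homo, and was lower in HD-het (-0.63 ± 0.075 (SE), adjusted p = 3.15e-05). Pgam5, a mitochondrial phosphatase named after phosphoglycerate mutase, had 58.1, 58.7 and 60.8 CPM in the control libraries, 44, 39.6 and 48.8 in HD-het cells and 77.7, 57.7 and 68.7 in HD-homo, and was higher in HD-homo cells than in HD-het cells (0.63 ± 0.11 (SE), adjusted p = 0.0005).

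Of 27 tested hypoxia factors and hypoxia-induced genes outside glycolysis, 11 were higher and 5 lower in HD-het, and 10 were higher and 5 lower in HD-homo, where 31.0% and 23.3% of all genes were called higher and 29.1% and 22.3% lower. Car9, among those called higher in HD-homo, passed the filter on low counts only through HD-homo, so that its call is no result. Adm, a vasodilator peptide, had 1.07, 1.05 and 0.64 CPM in the control libraries, 0, 0 and 0.189 in HD-het cells and 15.7, 16.8 and 25.7 in HD-homo. It was 20.7-fold higher in HD-homo than in control (4.37 ± 0.32 (SE), adjusted p = 8.65e-07). Plod2, a collagen lysyl hydroxylase, had 112, 124 and 84.4 CPM in the control libraries, 444, 511 and 519 in HD-het cells and 59.8, 59.1 and 54.5 in HD-homo, and was highest in HD-het (2.20 ± 0.13 (SE), adjusted p = 2.58e-07). Loxl2, a lysyl oxidase, had 98.7, 106 and 56.1 CPM in the control libraries, 129, 128 and 144 in HD-het cells and 24.2, 14.3 and 12.8 in HD-homo, and was lower in HD-homo (-2.34 ± 0.26 (SE), adjusted p = 2.61e-05). Ddit4, an inhibitor of mTORC1, had 40.7, 39.5 and 64.1 CPM in the control libraries, 23.1, 22.6 and 22.3 in HD-het cells and 19.2, 30.3 and 30.5 in HD-homo. It was lower than control in HD-het (-1.08 ± 0.21 (SE), adjusted p = 0.000854) and in HD-homo (-0.85 ± 0.20 (SE), adjusted p = 0.00546). Plod2 and Loxl2 were highest in HD-het, as was the sum over the mesenchymal markers given above, whose part was not tested. P4ha2, a collagen prolyl hydroxylase of the same list that was named after its values were seen, was highest in HD-homo, with 25.9, 28 and 21.6 CPM in the control libraries, 38.5, 35.6 and 52.2 in HD-het cells and 76.7, 66.8 and 72.7 in HD-homo (over HD-het 0.78 ± 0.14 (SE), adjusted p = 0.00054). P4ha1 of that list, also named after its values were seen, was highest in HD-het (over control 0.98 ± 0.15 (SE), adjusted p = 0.000191). It had 166, 175 and 116 CPM in the control libraries, 289, 283 and 332 in HD-het cells and 150, 115 and 139 in HD-homo.

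Among 21 tested regulators of glycolysis, 5 were higher and 9 lower in HD-het, and 5 higher and 3 lower in HD-homo, with 31.0% and 29.1% of all genes called so in HD-het and 23.3% and 22.3% in HD-homo. Nqo1, a quinone reductase and known target of the antioxidant factor NRF2, had 168, 148 and 135 CPM in the control libraries, 64.6, 60.9 and 62.2 in HD-het cells and 273, 278 and 404 in HD-homo. The lines did not overlap, with HD-het below control (-1.26 ± 0.14 (SE), adjusted p = 2.48e-05) and HD-homo above it (1.08 ± 0.14 (SE), adjusted p = 8.91e-05). Txnip, which restrains glucose uptake and answers to glucose through ChREBP, had 25, 27.9 and 29.1 CPM in the control libraries, 100.2, 115 and 123 in HD-het cells and 34.4, 27.1 and 67.8 in HD-homo, and was higher in HD-het (2.04 ± 0.27 (SE), adjusted p = 6.34e-05). Prkag2, a regulatory subunit of AMPK, had 12.3, 12.4 and 11.4 CPM in the control libraries, 19, 19.1 and 20.2 in HD-het cells and 6.79, 7.11 and 5.41 in HD-homo, and was lower in HD-homo (-0.90 ± 0.12 (SE), adjusted p = 7.46e-05). Myc, named here for its known role in this pathway and after its values were seen, had 358, 345 and 369 CPM in the control libraries, 166, 156 and 181 in HD-het cells and 221, 309 and 333 in HD-homo, and was lower in HD-het (-1.09 ± 0.13 (SE), adjusted p = 3.72e-05), while HD-homo did not pass (adjusted p = 0.0727).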

How the data were processed

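The authors deposited raw footprint counts by gene symbol, with a column for each library, without normalization or pooling. The submitters' processing notes name cutadapt, Bowtie 1.0.1 and build mm10 (GRCm38). The counting program, annotation, strand use and handling of multiply matching fragments are not given in the sources used here. Column names gave the sample of each of the 9 columns. Of 36410 rows, 19597 were 0 everywhere.

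Counts were filtered (filterByExpr), scaled by trimmed mean of M values and tested with edgeR 4.0.16 (glmQLFit, glmQLFTest; R 4.3.3, limma 3.58.1) on all 9 libraries with group means, with Benjamini-Hochberg adjustment over the 12678 genes left and a threshold of 0.05. CPM were computed over scaled totals. Fold changes are fitted values. Levels between genes were divided by coding length (GENCODE M21), and sharing was the percent of 26-nt coding windows found in transcripts of other genes. Coordinates and promoters came from RefSeq GRCm38.p6. The floor was 3 counts per library and covers counting error only. The test was tried on simulated counts.

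The members and lists were chosen with earlier results of these data known. Members called in some comparison with at least 10 CPM in the highest line are given by library, and of each other list the gene with the largest called rise and fall in each comparison (at least 10 CPM in the higher line) is named. Alternatives were other size factors, filters, thresholds and sample sets, DESeq2 1.42.0, a replicate block, single libraries left out, and, chosen after seeing the data, offsets for GC content and length and removal of near-copy rows. The list of neural precursor markers is not reported here.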

Additional observations from a re-analysis of the deposited data

Results flagged for a closer look

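4 genes were called in opposite directions against control in the mutant lines. They were chosen for these calls, and the lines share the control libraries, so the difference between both effects, which is the fitted change of HD-homo against HD-het, is given as a description. It was 1.93 on the log2 scale for Pfkl, the liver-type phosphofructokinase subunit, and 1.40 for Pfkfb4, which sets the level of an activator of phosphofructokinase. Tkt, transketolase, differed by 0.58 and Taldo1, transaldolase, by -1.15. The calls of Pfkfb4 and Tkt in HD-homo were lost when certain single libraries were left out, as given with each gene.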

How the results depend on the processing

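All 22 calls of HD-het against control held under each alternative fit at the threshold of 0.05, as did 14 of 18 calls of HD-homo against control and 15 of 22 of HD-homo against HD-het. Requiring a change of at least 2-fold left 2 genes higher and 4 lower in HD-het against control, 2 and 1 in HD-homo against control, and 4 and 3 in HD-homo against HD-het. At an adjusted p under 0.01, 4 genes were higher in HD-homo against control. Shares over all genes were taken only for the main fit at 0.05. Counts under other settings thus have no such share beside them and are descriptions. The median change of HD-homo against control, -0.0064, was 0.020 with total counts only, -0.045 without a filter and -0.086 with offsets for GC content and coding length, for which 97.0% of genes had values. Leaving out a library in turn gave 4 to 7 genes higher and 10 to 12 lower in HD-homo against control with a median of -0.063 to -0.023, 5 to 6 higher and 17 to 18 lower in HD-het against control with a median of -0.37 to -0.30, and 14 to 15 higher and 7 to 8 lower between the mutant lines with a median of 0.12 to 0.27. Gapdh in HD-homo against control reversed to -0.35 without HD-homo replicate 1 (range over libraries left out -0.35 to 0.20), and the cause was not tested. With the GC and length offsets, Hk1, Tpi1, Pgk1, Ldha, Ldhb and Pgls lost their calls in HD-homo against HD-het. Same-numbered libraries did not deviate together (r of -0.36 to 0.17 over 9 pairs, beside -0.28 to 0.38 over 18 pairs with different numbers). This cannot settle whether the numbers pair the samples, since matched libraries need not share a strong effect. The fit with a replicate block gave 17 genes lower and 5 higher in HD-het against control, 6 higher and 11 lower in HD-homo against control, and 15 higher and 8 lower between the mutant lines. It lost the call on Tkt in HD-homo against control (0.26, adjusted p = 0.0593) and gained Hk2 in HD-homo against HD-het (-0.25, adjusted p = 0.0419). Depth limited only Slc16a3, at 0 to 9 counts per library.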

Other observations

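Glucose is also drawn into glycogen, sorbitol and hexosamines. Of 21 tested genes of these branches and of gluconeogenesis, 9 were higher and 6 lower in HD-het than in control, and 7 were higher and 5 lower in HD-homo. Of all genes, 31.0% were higher and 29.1% lower in HD-het, and 23.3% and 22.3% in HD-homo. Gfpt2, an isozyme of the rate-limiting step of hexosamine synthesis, had 1.83, 1.76 and 1.54 CPM in the control libraries, 2.81, 3 and 2.03 in HD-het cells and 33.5, 23.9 and 26.7 in HD-homo, and was 16.3-fold higher in HD-homo than in control (4.03 ± 0.18 (SE), adjusted p = 1.51e-08). It was also higher in HD-het than in control (0.63 ± 0.20 (SE), adjusted p = 0.0173). Akr1b3, the aldose reductase that turns glucose into sorbitol, had 147, 149.8 and 168 CPM in the control libraries, 69.6, 70.5 and 80.6 in HD-het cells and 156, 127 and 145 in HD-homo, and was lower in HD-het (-1.07 ± 0.10 (SE), adjusted p = 5.89e-06). Sord, which oxidizes sorbitol to fructose, had 14.4, 13.1 and 14.9 CPM in the control libraries, 22.5, 23.3 and 19.7 in HD-het cells and 6.98, 10.4 and 8.96 in HD-homo, and was lower in HD-homo than in HD-het (-1.32 ± 0.14 (SE), adjusted p = 8.73e-06). Pygb, the brain glycogen phosphorylase, had 36.1, 35.7 and 40.6 CPM in the control libraries, 64.8, 59.6 and 55.3 in HD-het cells and 37, 37.1 and 28.3 in HD-homo, and was higher in HD-het (0.68 ± 0.12 (SE), adjusted p = 0.000415). G6pc3, a glucose phosphatase, had 13.1, 15.3 and 14.6 CPM in the control libraries, 10.3, 11.9 and 12.4 in HD-het cells and 8.51, 6 and 8.29 in HD-homo, and was lower in HD-homo (-0.91 ± 0.14 (SE), adjusted p = 0.000321).

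Shuttles that move the electrons of cytosolic NADH into mitochondria held 10 tested genes, with 2 higher and 4 lower in HD-het and 1 higher and 5 lower in HD-homo, beside the same shares of all genes, 31.0% and 29.1% for HD-het and 23.3% and 22.3% for HD-homo. Got1, the cytosolic aspartate aminotransferase, had 145, 149 and 149 CPM in the control libraries, 60.1, 60.5 and 57.6 in HD-het cells and 114, 105 and 98.2 in HD-homo, and HD-het lay below the other lines (against control -1.31 ± 0.078 (SE), adjusted p = 2.39e-07). HD-homo was also lower than control (-0.48 ± 0.076 (SE), adjusted p = 0.000353). Gpd2, the mitochondrial glycerol phosphate dehydrogenase, had 54.8, 59.3 and 48.7 CPM in the control libraries, 48.8, 47.4 and 64.5 in HD-het cells and 23.4, 20.9 and 20.4 in HD-homo, and HD-homo was lower than control (-1.33 ± 0.13 (SE), adjusted p = 8.47e-06). Gpd1l was the gene that rose most in HD-het (0.36 ± 0.12 (SE), adjusted p = 0.0238) and Slc25a11, the oxoglutarate carrier, in HD-homo (0.25 ± 0.088 (SE), adjusted p = 0.04). Among 13 tested other glucose and monocarboxylate transporters and their partners, 6 were higher and 1 lower in HD-het, and 3 were higher and 3 lower in HD-homo, the latter near the shares of all genes (23.3% and 22.3%, against 31.0% and 29.1% in HD-het). Of those 6, Slc16a4, Slc16a7 and Slc16a13 had at most 5 counts in any control library and passed the filter on low counts only through HD-het. Their calls as higher in HD-het were thus set by the filter and are no result. Slc16a13 was also among the 3 called higher in HD-homo, on counts of 14, 1 and 3 against 0 in each control library. That call rests mostly on HD-homo replicate 1 and is no result either. Slc2a8, with a mean of 4.21 CPM in HD-het, was the most abundant of the 6. Bsg, a transporter partner of the same list named after its values were seen, was called in no comparison. It had 1131 ± 162, 1241 ± 219 and 1055 ± 126 CPM (SD, n = 3) in control, HD-het and HD-homo. Emb, embigin, an ancillary protein that brings monocarboxylate transporters to the membrane, had 1.8, 2 and 1.96 CPM in the control libraries, 2.16, 1.27 and 1.66 in HD-het cells and 128, 121 and 124 in HD-homo, and was 64.5-fold higher in HD-homo than in control (6.01 ± 0.15 (SE), adjusted p = 3.06e-10).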
